A study of Homo sapiens with 16 samples.

Results

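Islet transcription factors are the DNA-binding proteins that carry pancreatic endoderm to hormone-secreting endocrine cells and hold those cells in their identity. The 9 genes described here, PDX1, NKX6-1, NKX2-2, NEUROD1, PAX6, ISL1, RFX6, INSM1 and MNX1, were taken by symbol from a table of 62754 genes, and each symbol matched 1 row. All 9 passed the filter on low counts and were measured in all 16 libraries. The libraries came from planar cultures of stem-cell-derived islets and held bulk total RNA of whole cultures. The starting cells were HUES8 (HUES08 in the labels), an established and here wild-type line of human embryonic stem cells. The control received the solvent DMSO. The 7 treated groups received colchicine at 10 nM (a blocker of tubulin polymerisation), epirizole at 2.5 uM (an anti-inflammatory drug), Ly-294002 at 120 nM (an inhibitor of PI3 kinases) or moxifloxacin at 1.1 uM (a fluoroquinolone antibiotic). The others received rottlerin at 1.23 uM (a plant compound used to inhibit several kinases), vardenafil at 125 nM (an inhibitor of phosphodiesterase 5) or rimonabant at 125 nM (an antagonist of cannabinoid receptor CNR1). Every group had 2 libraries in 1 labelled batch, and each compound was in the medium during stage 5 of the protocol and the first 7 days of stage 6. A prediction method based on expression signatures had proposed the compounds as possible effectors of beta cell maturation, so the comparison with DMSO asks whether these regulators changed with any of them. All cultures came from 1 cell line, and no label tells whether a group's pair of libraries stems from different cultures. The p-values therefore measure only how far these libraries spread, which may be technical.

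During pancreas development PDX1, MNX1 and RFX6 are active in the foregut endoderm and pancreatic bud and stay on in islet cells. NEUROD1, INSM1 and NKX2-2 are switched on as the transient factor NEUROG3 commits progenitors to the endocrine fate. ISL1 and PAX6 act in all or most islet cell types, and NKX6-1 marks pancreatic progenitors and later the beta cell. Several of these genes also act outside the pancreas, MNX1 and ISL1 in motor neurons, PAX6 in the eye and forebrain, ISL1 in the heart and INSM1 in neuroendocrine cells elsewhere.

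In these cultures 5 of the 9 genes, NKX6-1, NKX2-2, NEUROD1, PAX6 and INSM1, varied together from library to library, ISL1 followed them more loosely, and PDX1 and MNX1 were each correlated with 1 of the 5. RFX6 was correlated with 0 of the 5. That division was seen in the data and is not tested as a group. The DNA just before the transcription start is shown for the genes whose promoter is in the RefSeq table used (6 of the 9, GRCh38.p14), as the stretch in which shared motifs of endocrine factors would be sought. Capitals mark CANNTG, the E-box read by basic helix-loop-helix factors such as NEUROD1. Each run is written 5′ to 3′ on the strand of the gene and is cut where GENCODE 29 places an exon. The window of NEUROD1 lies inside an annotated exon and is not printed.
NKX6-1: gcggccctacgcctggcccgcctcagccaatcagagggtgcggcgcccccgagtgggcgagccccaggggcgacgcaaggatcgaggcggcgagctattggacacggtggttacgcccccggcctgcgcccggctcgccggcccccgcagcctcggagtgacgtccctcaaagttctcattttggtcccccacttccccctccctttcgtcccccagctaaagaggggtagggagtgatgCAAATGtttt
NKX2-2: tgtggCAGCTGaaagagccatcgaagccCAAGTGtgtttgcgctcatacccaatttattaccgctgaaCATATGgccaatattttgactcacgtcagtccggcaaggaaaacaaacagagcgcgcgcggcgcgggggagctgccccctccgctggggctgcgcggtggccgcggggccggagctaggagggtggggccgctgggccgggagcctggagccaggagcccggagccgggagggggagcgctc
PAX6: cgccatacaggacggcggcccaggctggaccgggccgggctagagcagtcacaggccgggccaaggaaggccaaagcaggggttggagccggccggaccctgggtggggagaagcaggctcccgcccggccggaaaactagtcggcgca
ISL1: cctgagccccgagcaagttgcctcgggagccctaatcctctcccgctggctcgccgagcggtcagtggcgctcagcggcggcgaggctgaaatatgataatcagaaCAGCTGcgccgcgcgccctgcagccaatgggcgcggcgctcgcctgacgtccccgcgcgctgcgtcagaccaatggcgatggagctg
MNX1: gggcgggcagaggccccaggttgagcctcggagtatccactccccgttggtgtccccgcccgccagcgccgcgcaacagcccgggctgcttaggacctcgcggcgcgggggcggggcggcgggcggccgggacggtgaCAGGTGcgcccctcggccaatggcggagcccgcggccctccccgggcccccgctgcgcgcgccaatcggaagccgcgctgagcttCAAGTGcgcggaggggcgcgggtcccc

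The run of NKX6-1 spans chr4:84499293-84499542 and that of NKX2-2 spans chr20:21522690-21522939, both on the minus strand and both before a RefSeq start that lies upstream of the gene as GENCODE 29 draws it. The run of PAX6 covers 149 bases at chr11:31818063-31818211 on the minus strand. That of ISL1 covers 193 bases at chr5:51383198-51383390 on the plus strand, and that of MNX1 lies at chr7:157010664-157010913 on the minus strand. CANNTG, which reads the same on both strands, was counted in the full 250 bases before 1 start per gene, bases cut from the printed runs included. That start was the outermost in RefSeq. PAX6 has 9 RefSeq starts and NKX2-2 and MNX1 have 2 each, and their other starts were not read. CANNTG occurred 3 times for NKX2-2, 2 times for MNX1, 1 time each for NKX6-1 and ISL1 and 0 times for PAX6 and NEUROD1. The sequence was found in 62.2% of 27305 RefSeq promoter windows of the same length, for each gene the first listed. The narrower CAGATG, searched on both strands and a special case of CANNTG, was found in 0 of the 6 windows, against 12.2% of all windows. The homeodomain core TAAT, searched on both strands, occurred in the windows of NKX2-2, PAX6 (in bases not printed) and ISL1, against 48.2% of all windows, and TAATTA, which contains it, occurred in 0 of the 6 against 4.5%. These matches describe letters and not binding. The motif counts at these starts did not divide the genes in the way their levels did, since MNX1 had 2 E-boxes and PAX6 and NEUROD1 had 0.

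Levels are given as CPM, the usual depth-scaled read count, with library sizes rescaled by the trimmed mean of M-values (TMM). Library totals ran from 23294377 to 30701868 reads, and 3 reads, the most that a count of 0 allows, came to 0.0977 to 0.129 CPM. For comparison between genes the CPM was divided by the length of the principal GENCODE transcript in kilobases. By this measure RFX6 had the highest median over the 16 libraries, 26.1 CPM per kilobase, followed by PDX1 with 16.1. ISL1 had 4.12, PAX6 1.94, MNX1 1.54, NKX6-1 1.08 and NEUROD1 1.07 CPM per kilobase. INSM1 with 0.594 and NKX2-2 with 0.557 CPM per kilobase were the lowest. PAX6 has 9 principal transcripts of 2450 to 6975 bases, so its per-length level depends on which of them the cultures make. RFX6 (17.2 to 33.8) and PDX1 (9.05 to 21.5) overlapped each other but lay above every value of the other 7 genes, the highest of which was 6.25 CPM per kilobase for ISL1. The ranges of those 7 overlapped, so their order is that of medians only.

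**Figure D1:**
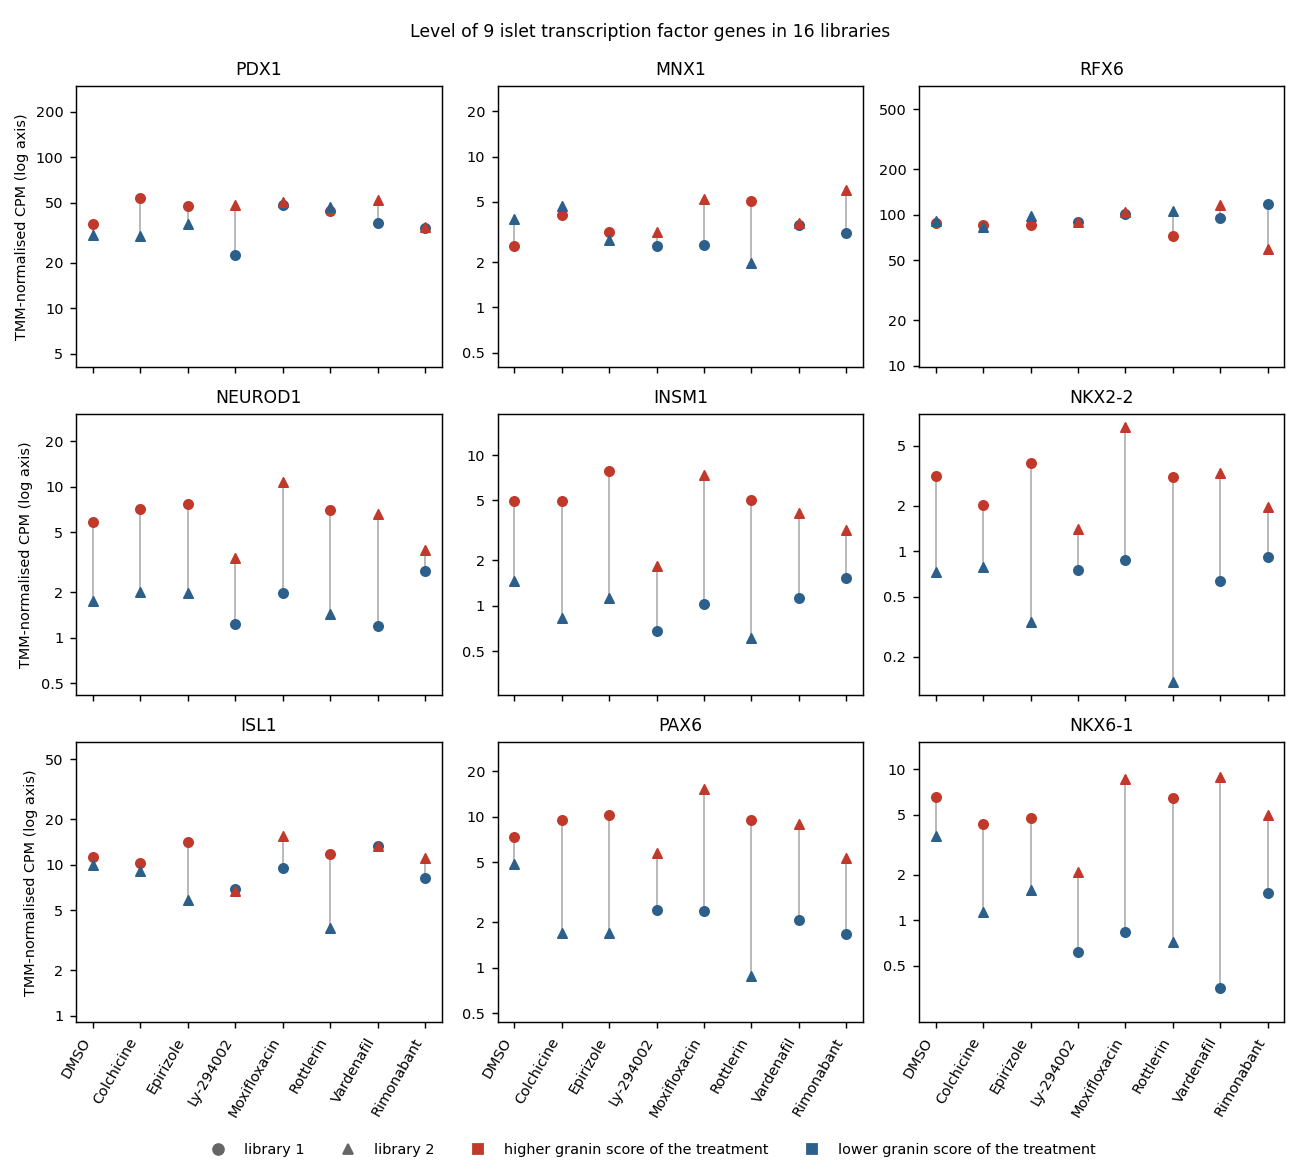
Each panel plots 1 gene, with TMM-normalised CPM on a log axis of the same relative span in every panel and the 8 treatments along the horizontal axis; circles are library 1, triangles library 2, and red marks the library of each treatment with the higher granin score. RFX6 ran only from 59.5 to 117 CPM, while NKX2-2 ran from 0.136 to 6.69 CPM with the red library the higher one in all 8 treatments.

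RFX6 (ENSG00000185002, chromosome 6, 116877212 to 116932163, plus strand), a winged-helix factor needed for endocrine cells and for gut endoderm, was the most abundant and the steadiest of the 9. It had 88.1 and 90.9 CPM in the DMSO libraries 1 and 2, 85.2 and 82.4 with colchicine, 85.3 and 97.4 with epirizole, and 89.4 and 88.7 with Ly-294002. It had 101 and 104 CPM with moxifloxacin, 71.9 and 106 with rottlerin, 94.7 and 115 with vardenafil, and 117 and 59.5 with rimonabant. The highest and the lowest of the 16 values were thus the 2 rimonabant libraries, 1.97-fold apart, and the other 14 lay between 71.9 and 115 CPM. Leaving out rimonabant library 1 gave a log2 change from DMSO of -0.59 (edgeR adjusted p = 0.0502), and leaving out library 2 gave 0.38 (adjusted p = 0.419), against -0.02 with both. Where a library is left out, here and elsewhere, its group has 1 library, which is assumed to vary like those of the other groups.

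PDX1 (ENSG00000139515, chromosome 13, 27920020 to 27926231, plus strand), the homeodomain factor of the pancreatic bud and the beta cell, ran from 22.6 to 53.7 CPM with a median of 40.3. It had 36.4 and 30.7 CPM in DMSO, 53.7 and 29.9 with colchicine, 47.9 and 36.4 with epirizole, and 22.6 and 48.1 with Ly-294002. It had 48.2 and 50.3 CPM with moxifloxacin, 44.1 and 47 with rottlerin, 36.5 and 51.9 with vardenafil, and 33.9 and 34.8 with rimonabant. DMSO had the lowest mean of the 8 groups, 33.5 ± 4 CPM (SD, n = 2), and moxifloxacin the highest, 49.2 ± 1.46. The moxifloxacin, rottlerin and vardenafil libraries lay above both DMSO libraries, vardenafil 1 by 36.5 against 36.4, while the colchicine and Ly-294002 libraries fell on both sides of them. MNX1 (ENSG00000130675, chromosome 7, 156994051 to 157010651, minus strand), a homeodomain factor of the early pancreatic bud that persists in beta cells, had 1.97 to 6.01 CPM, with the lowest value in rottlerin 2 and the highest in rimonabant 2. Its DMSO libraries had 2.57 and 3.83 CPM, and the 2 colchicine libraries, with 4.1 and 4.68, were the only pair above both.

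The 3 factors of endocrine commitment varied far more. NEUROD1 (ENSG00000162992, chromosome 2, 181673088 to 181680876, minus strand), a helix-loop-helix activator of the insulin gene and other endocrine genes, had 5.84 and 1.76 CPM in DMSO, 7.11 and 2 with colchicine, 7.75 and 1.97 with epirizole, and 1.24 and 3.38 with Ly-294002. It had 1.98 and 10.7 CPM with moxifloxacin, 6.99 and 1.43 with rottlerin, 1.19 and 6.64 with vardenafil, and 2.75 and 3.82 with rimonabant. The 2 libraries of a treatment were from 1.39-fold apart in rimonabant to 5.56-fold in vardenafil, and every treatment overlapped every other. INSM1 (ENSG00000173404, chromosome 20, 20368121 to 20370949, plus strand), a zinc finger factor of endocrine differentiation, had 4.92 and 1.46 CPM in DMSO, 4.96 and 0.826 with colchicine, 7.88 and 1.12 with epirizole, and 0.684 and 1.85 with Ly-294002. It had 1.03 and 7.35 CPM with moxifloxacin, 5.01 and 0.612 with rottlerin, 1.12 and 4.15 with vardenafil, and 1.52 and 3.17 with rimonabant. The higher library was the same one as for NEUROD1 in all 8 treatments.

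NKX2-2 (ENSG00000125820, chromosome 20, 21511010 to 21514026, minus strand), a homeodomain repressor and activator needed to form beta cells, spread over the widest range of the 9 genes. It had 3.14 and 0.728 CPM in DMSO, 2.03 and 0.792 with colchicine, 3.84 and 0.339 with epirizole, and 0.749 and 1.41 with Ly-294002. It had 0.877 and 6.69 CPM with moxifloxacin, 3.1 and 0.136 with rottlerin, 0.637 and 3.28 with vardenafil, and 0.918 and 1.96 with rimonabant. The low value of rottlerin 2 rested on 4 reads, with an exact 95% interval before TMM scaling of 0.0356 to 0.335 CPM, and that of rottlerin 1 on 94 reads with 2.57 to 3.89. The 22.8-fold difference between the 2 rottlerin libraries was thus larger than the counting error, which is all that these intervals cover.

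Of the factors of islet cell types, NKX6-1 (ENSG00000163623, chromosome 4, 84491987 to 84498450, minus strand), a homeodomain factor that holds beta cell identity, had 6.58 and 3.6 CPM in DMSO, 4.37 and 1.14 with colchicine, 4.76 and 1.59 with epirizole, and 0.619 and 2.08 with Ly-294002. It had 0.839 and 8.6 CPM with moxifloxacin, 6.49 and 0.715 with rottlerin, 0.358 and 8.93 with vardenafil, and 1.52 and 5 with rimonabant. The lowest and the highest value of all 16 were the 2 vardenafil libraries, with 9 and 215 reads and 24.9-fold apart, while the 2 DMSO libraries were the closest pair, 1.83-fold apart. DMSO had the highest mean, 5.09 ± 2.1 CPM (SD, n = 2), and Ly-294002 the lowest, 1.35 ± 1.03, and both Ly-294002 libraries lay below both DMSO libraries.

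PAX6 (ENSG00000007372, chromosome 11, 31784779 to 31818062, minus strand), a paired-domain factor of all islet endocrine types, had 7.32 and 4.83 CPM in DMSO, 9.57 and 1.69 with colchicine, 10.3 and 1.7 with epirizole, and 2.41 and 5.77 with Ly-294002. It had 2.36 and 15.3 CPM with moxifloxacin, 9.53 and 0.885 with rottlerin, 2.07 and 9.01 with vardenafil, and 1.66 and 5.32 with rimonabant. The 2 libraries of a treatment were from 1.51-fold apart in DMSO to 10.8-fold in rottlerin. ISL1 (ENSG00000016082, chromosome 5, 51383391 to 51394738, plus strand), a LIM homeodomain factor of endocrine cells, was steadier, at 3.81 to 15.4 CPM. Its 2 libraries were close in DMSO (11.3 and 9.97 CPM), colchicine (10.3 and 9.05), Ly-294002 (6.9 and 6.75) and vardenafil (13.3 and 13.4) and far apart in rottlerin (11.8 and 3.81) and epirizole (14.2 and 5.8). Both Ly-294002 libraries lay below, and both vardenafil libraries above, the DMSO pair.

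Ordered by treatment means, the 8 treatments overlapped with their neighbours for all 7 neighbouring pairs in NKX6-1, NKX2-2, NEUROD1, PAX6, ISL1, INSM1 and MNX1 and for 6 of 7 in PDX1 and RFX6. Moxifloxacin had the highest mean of PDX1, NKX2-2, NEUROD1 and PAX6, vardenafil of ISL1 and RFX6, epirizole of INSM1, rimonabant of MNX1 and DMSO of NKX6-1. For NKX2-2, NEUROD1, PAX6 and INSM1 all 28 pairs of treatments overlapped, so no order of treatments could be read from these 4 genes.

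None of the 9 genes changed with any compound at an adjusted p under 0.05 (edgeR quasi-likelihood test, Benjamini-Hochberg over 24515 genes). Over all tested genes 0.196% were called with colchicine, 0.00816% with rottlerin, 7.8% with rimonabant and 0% with each of epirizole, Ly-294002, moxifloxacin and vardenafil. Split by direction, colchicine had 0.126% of genes higher and 0.0693% lower, and rimonabant 5.03% higher and 2.77% lower. The rimonabant figure came to 1913 genes and rested on single libraries, since 0 were called when either DMSO library or rimonabant 2 was left out and 3834 without rimonabant 1. The 48 colchicine genes fell to 1 or 2 without any of the 4 libraries compared. The count of members called was 0 of 9 with DESeq2 as well, and 0 of 9 had an unadjusted p under 0.05 in any of the 7 comparisons. A joint test of the 7 compounds called 0 of 9 (0.00408% of all genes), with adjusted p-values of 0.823 to 0.993, and the mean of the 7 compounds against DMSO called 0 of 9 (0% of all genes). All 7 comparisons share the same 2 DMSO libraries. Without any filter on low counts the same test called NKX6-1 and INSM1 with Ly-294002, PDX1 with moxifloxacin and 7 of the 9 genes jointly. That fit used quasi-dispersions of 0.567 to 0.821 for the members in place of 1.48 to 20.5, and the spread of each gene itself had no weight in it.

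The estimates themselves were wide. PDX1 with moxifloxacin had the smallest unadjusted p of the 63 estimates, with a log2 change of 0.55 (SE 0.35, 95% interval -0.23 to 1.34, edgeR adjusted p = 0.561). The largest estimate was that of NKX6-1 with Ly-294002, -1.93 (SE 1.64), whose interval of -5.67 to 1.8 left both a fall and a rise possible. INSM1 with Ly-294002 had -1.34 (interval -4.71 to 2.02) and NKX2-2 with moxifloxacin 0.99 (interval -2.29 to 4.27). RFX6 was the most tightly bounded gene. Its 7 log2 changes ran from -0.1 with colchicine (interval -0.68 to 0.49) to 0.23 with vardenafil (interval -0.35 to 0.81). For RFX6 and PDX1 the intervals thus reached at most 0.81 and 1.34 in size, whereas those of NKX6-1, NKX2-2, NEUROD1, PAX6 and INSM1 reached below -2 and above 2 in each comparison except NKX6-1 with Ly-294002 (upper bound 1.8) and NEUROD1 with moxifloxacin (lower bound -1.97).

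**Figure D2:**
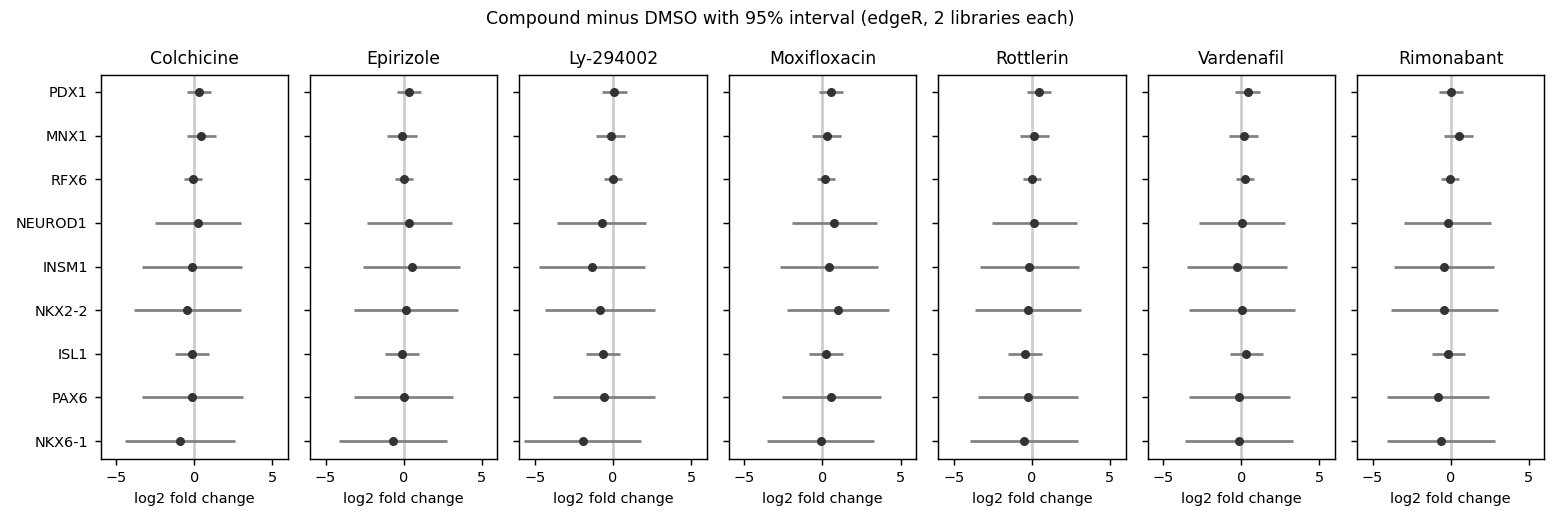
Each panel plots 1 compound against DMSO, with the log2 fold change on the horizontal axis, 1 row per gene, points for edgeR estimates and bars for 95% intervals. Every bar crosses 0, and the bars of PDX1, MNX1, RFX6 and ISL1 are shorter than those of the other 5 genes.

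By compound, the signs of the members' estimates are described here without a test. With Ly-294002, 8 of the 9 log2 changes were negative (median -0.64, against 0.001 over all tested genes), PDX1 with 0.07 being the exception. With moxifloxacin 8 of the 9 were positive (median 0.41, against -0.006), NKX6-1 with -0.1 being the exception. With rimonabant 7 of the 9 were negative (median -0.2), with colchicine 6 (median -0.12) and with rottlerin 6 (median -0.17). With epirizole 5 of the 9 were positive (median 0.03) and with vardenafil 6 (median 0.05). The sign of an estimate was often set by 1 library, since leaving out 1 of the 4 libraries compared in turn changed the sign of 45 of the 63 estimates at least once. These included all 7 of NKX2-2 and all 7 of NEUROD1. Without moxifloxacin 2, for example, the estimates of NKX2-2, NEUROD1, PAX6 and INSM1 turned to -1.11, -0.92, -1.35 and -1.61.

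Both libraries of a compound lay beyond both DMSO libraries in 10 of the 63 combinations. With vardenafil PDX1, ISL1 and RFX6 were higher, with moxifloxacin PDX1 and RFX6, with rottlerin PDX1 and with colchicine MNX1. RFX6 was lower with colchicine, and NKX6-1 and ISL1 were lower with Ly-294002. Over all tested genes such separation was common. With vardenafil it held for 39.3% of genes (19.4% higher, 20% lower), with moxifloxacin for 47.6% (23.2% higher, 24.4% lower) and with rottlerin for 47.9% (23.6% higher, 24.4% lower). With colchicine it held for 50.3% (24.5% higher, 25.8% lower) and with Ly-294002 for 39% (19.5% higher, 19.5% lower). With epirizole (38%, of which 19% higher) and rimonabant (53.2%, of which 26.8% higher and 26.4% lower) it held for 0 members. No compound had a larger share of the 9 genes separated than of all tested genes.

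The spread between the 2 libraries of a treatment was the main feature of these genes. In log2 CPM, 59.2% (ISL1) to 90.6% (PAX6) of a member's sum of squares lay within treatments, against a median of 46.3% over all tested genes. The within-treatment SD on the log2 scale was 1.79 for NKX6-1, 1.7 for NKX2-2, 1.57 for PAX6, 1.56 for INSM1 and 1.33 for NEUROD1, against a median of 0.27 over all tested genes. Only 9 of 24515 genes had a larger within-treatment SD than NKX6-1, 15 than NKX2-2, 23 than PAX6, 24 than INSM1 and 72 than NEUROD1. ISL1 with 0.56, MNX1 with 0.51, PDX1 with 0.38 and RFX6 with 0.29 were nearer to the median gene.

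The library that was high for these genes was also the one with more secretory granule transcripts. Granins are the matrix proteins of endocrine secretory granules, and a granin score was taken as the mean log2 CPM of CHGA, CHGB, SCG2, SCG3 and SCG5, the last with only 1 to 10 reads. The score ran from 0.96 in rottlerin 2 to 3.45 in epirizole 1, and each treatment held 1 library of at most 2.19 and 1 of at least 2.59. NKX6-1, NKX2-2, NEUROD1, PAX6 and INSM1 were each higher in the library with the higher score in 8 of 8 treatments, which held for 2.41% of all tested genes. PDX1 and ISL1 did so in 7 of 8, MNX1 in 6 and RFX6 in 3. In bulk RNA a library with fewer endocrine cells and a library with less of these transcripts per cell cannot be told apart.

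Over the 16 libraries INSM1 was the gene closest to the granin score, with Pearson r = 0.969 and Spearman rho = 0.944. PAX6 had r = 0.939 and rho = 0.909, NEUROD1 0.932 and 0.888, NKX2-2 0.911 and 0.909, and NKX6-1 0.9 and 0.903. For these 5 genes each permutation p was 1e-05, the smallest that 100000 permutations can give (adjusted p = 1.8e-05 over 9 relations), and r without the 2 libraries of most extreme score was 0.876 to 0.964. ISL1 followed less closely (r = 0.728, permutation p = 0.00095, adjusted 0.00142; rho = 0.771, permutation p = 0.00059, adjusted 0.000885; r = 0.577 without the 2 extreme libraries). PDX1 had r = 0.577 (permutation p = 0.0191, adjusted 0.0246; rho = 0.571, permutation p = 0.0232, adjusted 0.0298; r = 0.657 without the 2 extreme libraries). No relation was detected for MNX1 (r = 0.457, permutation p = 0.0748, adjusted 0.0842; rho = 0.403, permutation p = 0.122, adjusted 0.137; r = 0.174 without the 2 extreme libraries) or RFX6 (r = -0.189, permutation p = 0.49; rho = -0.209, permutation p = 0.434; r = -0.118 without them). Only 0.2% of all tested genes reached r = 0.9 with the score, and the median gene had -0.01. The summed level of a list of 12 neuron markers also moved with the score (r = 0.741, permutation p = 0.00099, adjusted 0.0109 over 11 cell type lists; rho = 0.784, permutation p = 0.00047, adjusted 0.00517; r = 0.849 without the 2 extreme libraries). It was higher in the granin-rich library in 7 of 8 treatments, and its part in the members' variation was not tested. The other 10 lists had r of -0.506 (heart) to 0.405 (duct), with adjusted permutation p-values of 0.231 or more.

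**Figure D3:**
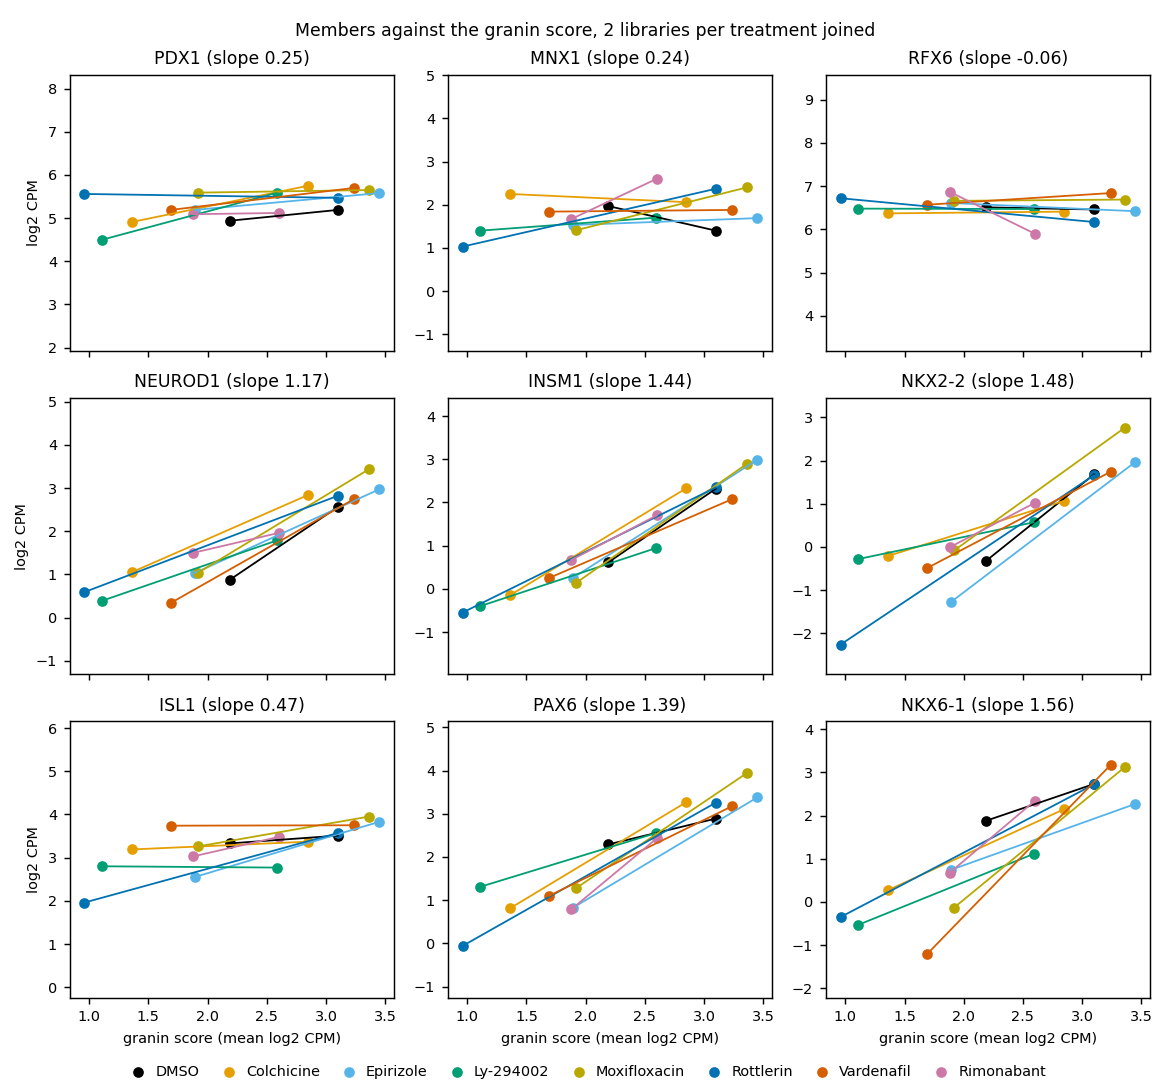
Each panel plots the log2 CPM of 1 gene against the granin score (mean log2 CPM of 5 granin genes), 1 point per library, with the 2 libraries of a treatment joined and all panels spanning the same range of log2 CPM. The lines climb in all 8 treatments for INSM1, PAX6, NEUROD1, NKX2-2 and NKX6-1 and climb in 7 for PDX1 and ISL1, 6 for MNX1 and 3 for RFX6.

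The relation was also taken inside treatments, as differences between library 1 and library 2, which share compound and dose. Which library bears which number has no known meaning, yet it sets the sign of each difference. The r, rho and p below thus rest in part on gene and score being higher in the same library. How far the sizes of the differences agree was not tested apart from this. Inside treatments INSM1 had r = 0.98 with the difference in granin score (exact permutation p = 0.000843, adjusted 0.00229; rho = 0.929, exact permutation p = 0.00223, adjusted 0.01). NEUROD1 had r = 0.974 (exact permutation p = 0.00102, adjusted 0.00229; rho = 0.976, exact permutation p = 0.000397, adjusted 0.00357). PAX6 and NKX6-1 had r of 0.97 and 0.961 (adjusted exact permutation p = 0.00229 each) and rho of 0.881 and 0.905 (adjusted 0.0163 and 0.0137). NKX2-2 had r = 0.95 (adjusted exact permutation p = 0.00415) and rho = 0.857 (adjusted 0.0193), so all 5 genes passed in these signed differences. ISL1 had r = 0.797 (adjusted exact permutation p = 0.00885) and rho = 0.786 (adjusted 0.0419). PDX1 (r = 0.698, adjusted exact permutation p = 0.0604), MNX1 (r = 0.629, adjusted 0.0875) and RFX6 (r = -0.349, adjusted 0.473) missed the threshold, as did their rho of 0.595, 0.5 and -0.238 (adjusted 0.17, 0.243 and 0.582). Without the 2 most extreme treatments r was 0.916 to 0.979 for the 5 genes and 0.752 for ISL1.

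The slope of the line, the change in log2 CPM of the gene per log2 unit of granin score, was above 1 for the 5 genes. It was 1.56 for NKX6-1 (1.45 to 1.67 when each library was left out in turn), 1.48 for NKX2-2 (1.35 to 1.64), 1.44 for INSM1 (1.4 to 1.48), 1.39 for PAX6 (1.33 to 1.53) and 1.17 for NEUROD1 (1.11 to 1.25). It was 0.47 for ISL1, 0.25 for PDX1, 0.24 for MNX1 and -0.06 for RFX6. SCG5 entered the score with only 1 to 10 reads and was on the side of the score in 4 of 8 treatments. Slopes on a score without SCG5 were not computed, so whether a slope exceeds 1 may depend on the genes of the score. INSM1 kept closest to its line among the 5, with a residual SD of 0.3 log2 units, and NKX6-1 strayed most, with 0.62. The libraries farthest from their line were vardenafil 1 for NKX6-1 (-1.52), epirizole 2 (-1.1) and Ly-294002 1 (1.05) for NKX2-2, and Ly-294002 1 for PAX6 (0.92).

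Among the 36 pairs of members 19 had an adjusted permutation p under 0.05. All 10 pairs within NKX6-1, NKX2-2, NEUROD1, PAX6 and INSM1 were among them, with r of 0.82 (NKX6-1 with NKX2-2) to 0.961 (NEUROD1 with INSM1), and 0.797 to 0.95 without the 2 extreme libraries. NEUROD1 with INSM1 had a permutation p of 1e-05, adjusted 6e-05, and rho = 0.918 (permutation p = 1e-05, adjusted 0.00018). The other 9 pairs included ISL1 with each of the 5, the highest being ISL1 with NKX2-2 (r = 0.824, permutation p = 0.0001, adjusted 0.000327; rho = 0.75, permutation p = 0.00122, adjusted 0.00399; r = 0.649 without the 2 extreme libraries). PDX1 passed with NEUROD1 alone (r = 0.615, permutation p = 0.0114, adjusted 0.0256; rho = 0.574, permutation p = 0.0221, adjusted 0.0498; r = 0.545 without the 2 extreme libraries). MNX1 passed with ISL1 (r = 0.621, permutation p = 0.01, adjusted 0.024; rho = 0.515, permutation p = 0.0441, adjusted 0.0835; r = 0.477 without the 2 extreme libraries). It also passed with NKX2-2 (r = 0.557, permutation p = 0.0247, adjusted 0.0468; rho = 0.406, permutation p = 0.12, adjusted 0.16; r = 0.408 without the 2 extreme libraries), in both cases by r and not by rho. RFX6 and MNX1 ran in opposite directions (r = -0.565, permutation p = 0.0212, adjusted 0.0423; rho = -0.444, permutation p = 0.0864, adjusted 0.124). Over the 16 libraries that relation weakened to r = -0.291 without the 2 libraries most extreme in MNX1. Rimonabant 2 held both the lowest RFX6 and the highest MNX1. In the differences within treatments this pair missed the threshold (r = -0.716, adjusted exact permutation p = 0.14). There r was -0.854 without the 2 treatments most extreme in MNX1. In the differences within treatments 14 of the 36 pairs passed, including the same 10. Those differences take their signs from the library numbers, so 2 genes being higher in the same library enters these results.

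**Figure D4:**
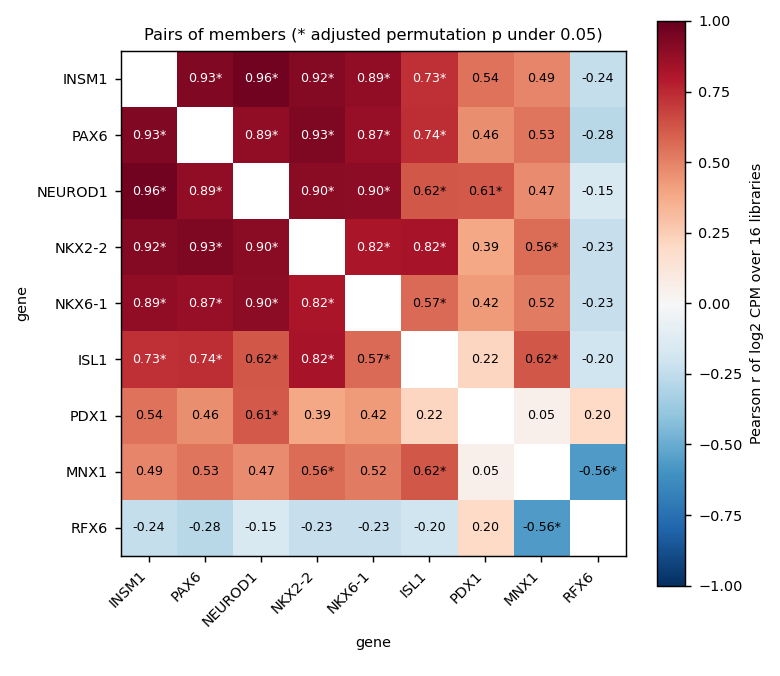
The grid gives Pearson r of log2 CPM over 16 libraries for each pair of the 9 genes on both axes, red for positive and blue for negative values, with a star where the permutation p adjusted over 36 pairs is under 0.05. The block of 5 genes at the upper left has r of 0.82 to 0.961, and the RFX6 row is negative except with PDX1.

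For each member the 3 genes of most similar pattern were taken by Pearson r over the 16 libraries among 17587 other genes with a mean of at least 1 CPM, as a description. INSM1 was nearest to SCG2 (0.985), CHGA (0.981) and UNC80 (0.977), 2 granins and a subunit of the sodium leak channel complex. NEUROD1 was nearest to UNC80 (0.97), SCG2 (0.968) and a gene without a symbol, ENSG00000278041 (0.963). PAX6 was nearest to TNR (0.969), SCG3 (0.962) and CHGA (0.957), an extracellular matrix protein of nervous tissue and 2 granins. Among the nearest to NKX2-2 were SST (0.954) and CRYBA2 (0.953), somatostatin and a crystallin. NKX6-1 was nearest to SLC38A3 (0.965), ITGA4 (0.953) and GC (0.951), an amino acid transporter, an integrin chain and the vitamin D-binding protein.

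The other 4 had different neighbours. ISL1 was nearest to SST (0.858), XKR7 (0.848) and NKX6-3 (0.837), the last a homeodomain factor of the stomach. PDX1 was nearest to the somatostatin receptor SSTR2 (0.91), the secreted Wnt inhibitor SFRP5 (0.895) and SLC44A3-AS1 (0.878). RFX6 was nearest to the calcium channel subunit CACNA2D1 (0.929), the retinol-esterifying enzyme LRAT (0.918) and RADX (0.902). MNX1 was nearest to SGSM1 (0.902), GNL1 (0.897) and DFFB (0.882). By this ranking CHGA was the 2nd most similar gene for INSM1, 3rd for PAX6, 7th for NKX6-1, 11th for NEUROD1 and 12th for NKX2-2, but 62nd for ISL1, 889th for PDX1, 1506th for MNX1 and 12481st for RFX6.

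Other endocrine lineage transcription factors are given by count. Of 26 listed 20 were tested, and 6 were higher in the library of higher granin score in 8 of 8 treatments. Among them were PAX4 (0.159 to 3.26 CPM), ST18 (0.261 to 4.14 CPM), MYT1 (0.577 to 2.98 CPM) and MLXIPL (16.8 to 35.7 CPM). FEV, the serotonergic factor of endocrine precursors and enterochromaffin cells, had 0 to 117 reads and was higher in 7 of 8. For 9 of the 20 the count was at most 4 of 8, among them SOX4, SOX11, PROX1, RFX3 and HHEX, broad factors of progenitors and endoderm. The share of all tested genes with at most 4 of 8 was not computed. Such counts, here and for the lists below, are therefore not read as a property of a list. NEUROG3 had at most 4 reads in a library and MAFA, a factor of mature beta cells, 2 to 11 reads.

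In the comparisons with DMSO 2 of these 20 factors were called, 1 with colchicine and 1 with rimonabant. Over all tested genes 0.196% were called with colchicine and 7.8% with rimonabant. These single calls are not read as a property of the list. SOX11 fell with colchicine (log2 change -0.62, SE 0.11, edgeR adjusted p = 0.0401) and RFX3, a factor of cilia and islet cells, fell with rimonabant (-0.43, SE 0.08, adjusted p = 0.013). SOX11 lost its call with an offset for each gene's GC content (edgeR adjusted p = 0.0633) and with the library number as a block (0.079). It kept the call with DESeq2 (adjusted p = 0.000497) and with the granin score as a covariate in edgeR (adjusted p = 0.00292). The call was also lost when any 1 of the 4 libraries was left out, with log2 changes of -0.57 to -0.65. RFX3 lost its call in the fit of only 4 libraries (edgeR adjusted p = 0.103) and with the GC offset (0.23). It kept the call with the block (0.0257), the granin covariate (0.00523) and DESeq2 (adjusted p = 0.00058). Without DMSO 1, DMSO 2 or rimonabant 2 the call was lost too, with log2 changes of -0.48, -0.38 and -0.41.

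Of the 23 pancreatic and foregut transcription factors 22 were tested and 0 were called with any compound or jointly. The 2 with the smallest p in edgeR's joint test were HNF4A (adjusted p = 0.256) and MEIS2 (adjusted p = 0.46). In this list 2 of 22, ONECUT3 and BHLHA15, were on the side of the granins in 8 of 8 treatments and 13 in at most 4 of 8. The abundant ONECUT2, HNF4A, GATA6 and FOXA1 had medians of 762, 166, 170 and 270 CPM. Of the 8 hormones tested of 12, INS, GCG, SST, PPY and PYY were higher in the granin-rich library in 8 of 8, and 0 were called. PPY and NPY had the smallest p in edgeR's joint test (adjusted p = 0.834 and 0.86).

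Of 24 tested secretory granule genes 10 were higher in the granin-rich library in 8 of 8 treatments, 4 of them genes of the score itself, and 4 were so in at most 4 of 8. PCSK1N, an inhibitor of prohormone convertase, rose with rimonabant (1.34, SE 0.33, edgeR adjusted p = 0.0327). It was the 1 gene of the 24 called with rimonabant, against 7.8% of all tested genes. It lost the call with the replicate block (0.0517) and with the GC offset, where the change was 0.75 (0.427). The call stayed with DESeq2 (adjusted p = 0.000993) and, in edgeR, with the granin covariate (0.00332) and with 4 libraries (0.0445). Without DMSO 1, DMSO 2 or rimonabant 2 the call was lost, with log2 changes of 1.48, 1.21 and 1.11. Of 21 tested beta cell function genes 7 were on the granin side in 8 of 8, among them the channel genes ABCC8, KCNJ11 and CACNA1A, and 6 were on it in at most 4 of 8. The glucose transporter genes SLC2A1 (268 to 870 CPM) and SLC2A3 (1220 to 2970 CPM) were on the granin side in 0 of 8. CACNA1C, a calcium channel subunit, fell with colchicine (-0.99, SE 0.18, edgeR adjusted p = 0.0468) and SYT4, a vesicle protein, fell with rimonabant (-1.72, SE 0.46, adjusted p = 0.0364). Each was 1 of 21 in its comparison, against 0.196% of all tested genes with colchicine and 7.8% with rimonabant. CACNA1C lost its call with the replicate block (0.079) and with the GC offset (0.0592). It kept the call with DESeq2 (adjusted p = 0.000267) and, in edgeR, with the granin covariate (0.0121) and with 4 libraries (0.0422). The call was lost without any 1 of the 4 libraries, with log2 changes of -0.84 to -1.12. SYT4 lost its call with 4 libraries (0.0733), with the replicate block (0.0567) and with the GC offset (0.324), and kept it with the granin covariate (0.0115). For SYT4 no adjusted p from DESeq2 was available. Its call was lost without any 1 of the 4, with log2 changes of -1.07 to -2.17.

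Markers of motor neurons and of the eye and forebrain, where some of these factors also act, were mostly scarce. Those of the heart and of neurons in general were mostly not. In the motor neuron and spinal cord list, which bears on MNX1 and ISL1, 8 of 10 genes had a median under 1 CPM, with at most 1 read of OLIG2 and 6 of LHX3, and the summed level of 178 to 240 CPM came mostly from the widely expressed FOXP1 (175 to 237 CPM). In the eye and forebrain list, which bears on PAX6, 9 of 12 had a median under 1 CPM, SIX3 had 0 reads in every library, and RAX and SIX6 had at most 2 reads. Its sum was 15.3 to 38.4 CPM, with the highest value in colchicine 1. In the heart list, which bears on ISL1, 3 of 11 had a median under 1 CPM, and the sum of 106 to 163 CPM was lowest in moxifloxacin 2, where ISL1 was highest. A large part of that sum was GATA4 (55.8 to 97.4 CPM), which is also in the pancreatic and foregut list. In the general neuron list 2 of 12 had a median under 1 CPM, and the sum of 116 to 238 CPM was highest in moxifloxacin 2 and lowest in colchicine 2. This is the list that moved with the granin score. It contains SNAP25 and other genes that endocrine cells express, and SNAP25 itself was higher in the granin-rich library in 5 of 8 treatments. The part of such genes in that relation was not tested.

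The other lists gave summed marker levels, which do not count cells. In the pluripotency list 6 of 10 genes had a median under 1 CPM, and POU5F1 and NANOG did not pass the filter on low counts. A median under 1 CPM was also found for 4 of 10 enterochromaffin-like, 3 of 10 intestine and 7 of 10 acinar genes. In the duct, liver and mesenchyme lists it was found for 0 genes. The duct and pancreatic progenitor list had sums of 932 to 1250 CPM, intestine 820 to 1170, liver 5220 to 11200, mesenchyme 1760 to 3680, enterochromaffin-like cells 108 to 147, pluripotency 217 to 315 and acinar cells 8.82 to 12.2 CPM, the acinar gene PNLIP having 0 reads. Mesenchyme was lowest in moxifloxacin 2, the library with the highest NKX2-2, NEUROD1, PAX6 and ISL1. Beside the labelled islet identity, the islet amyloid gene IAPP had at most 1 read in a library and INS 17 to 180.

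Some members share their locus with another transcript, and the strand setting of the counting is not given in the sources used here. PAX6 overlaps ELP4 on the opposite strand, with 484 to 661 reads against 26 to 442 of PAX6, and PAUPAR, an opposite-strand noncoding RNA with 0 to 51 reads. PAUPAR was highest in moxifloxacin 2 (51 reads) and epirizole 1 (31 reads), where PAX6 was highest too. NEUROD1 lies within CERKL on the same strand, with 31 to 123 reads. NKX2-2-AS1 had 0 to 2 reads, MNX1-AS2 0 to 3 and MNX1-AS1, within 2 kb of MNX1, 1 to 17. The transcript divergent from ISL1 had 13 to 61 reads, with its lowest and highest value in the same 2 rottlerin libraries that differed 3.09-fold in ISL1. Reads that fall where 2 genes overlap may have been lost or shared, so the levels of PAX6 and NEUROD1 are uncertain.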

How the data were processed

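RNA of whole cultures was freed of ribosomal RNA and made into paired-end libraries with a KAPA HyperPrep kit, per the labels' protocols. The same protocols list FastQC 0.11.8 for quality, Trimmomatic 0.38 for trimming, STAR 2.7.1a for alignment, Picard 2.20.4 for marking duplicates, StringTie 2.0.4 for assembly and featureCounts 1.6.0 or HTSeq for the counts. Per the submitters' processing notes, HTSeq and GRCh38 were used. The annotation release, strand setting and handling of multiply mapped reads are not given in the sources used here. The deposited values are raw counts per gene, not normalised by the authors, for 62754 genes in 16 libraries, and 0 columns were left unmapped.

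Tests on the deposited counts used edgeR 4.0.16 under R 4.3.3. The function filterByExpr on the 8 groups kept 24515 genes with 99.92% of the reads, and TMM factors ran from 0.961 to 1.046. All libraries entered 1 fit with a coefficient per group, 8 residual degrees of freedom, robust moderation and the quasi-likelihood method of earlier edgeR versions. This method was chosen over the current one with the counts of calls of both in view, and the current one was run as an alternative. Calls required a Benjamini-Hochberg adjusted p under 0.05 over the 24515 genes. Correlations used log2 CPM with a prior count of 2 and 100000 permutations, or all permutations for the 8 within-treatment differences, two-sided, adjusted over 36 pairs and 9 relations. The 11 cell type lists were correlated with the granin score in the same way, a test added after the data were seen. DESeq2 1.42.0 was an alternative. The methods were tested on simulated data. In the simulated counts for edgeR every gene had the same spread. Power and error for genes that vary as much as these members were therefore not tested.

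Named genes were all 9 members, from each other list up to 4 genes past the threshold or else the 2 with the smallest joint p, and for similarity the 3 genes of highest r. Beyond this rule, list genes that were on the granin side in every treatment or in none, or were near 0, were named after their values were seen. Some genes of these lists are not reported here. The members and lists were chosen with earlier results of these data known. Annotation came from GENCODE 29 (GRCh38), matched by gene identifier, and TMEM27 of the beta cell function list matched no row and was not used. The replicate numbers did not pair the libraries: over 28 pairs of treatments the differences between library 1 and library 2 correlated at -0.283 to 0.226, above 0.1 in 5. Libraries of a treatment differed by more than sampling noise (chi-square per degree of freedom 7.39 to 25.6), so none was counted as 1 library deposited 2 times. Whether they are technical repeats is not shown by this.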

Additional observations from a re-analysis of the deposited data

How the results depend on the processing

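The count of members called stayed at 0 in all 7 comparisons, the mean of compounds and the joint test with DESeq2 size factors, library totals, DESeq2, the replicate block, the GC offset, both together, the granin score as a covariate and the current quasi-likelihood method with and without the filter (both added after seeing the data). It was also 0 in the fits of only the 4 libraries compared. Leaving out each library in turn gave 0 to 0. The exception was the fit without a filter on low counts, with 2 members for Ly-294002 (NKX6-1, log2 change -1.91, adjusted p = 2.45e-05, and INSM1, -1.32, adjusted p = 0.0499), 1 for moxifloxacin (PDX1, 0.57, adjusted p = 0.00746) and 7 in the joint test, all but RFX6 and MNX1. In that fit the prior degrees of freedom were infinite for all 9 members, so the spread of each gene itself entered no test. The replicate block changed the sign of 0 of the 63 estimates, the GC offset of 10 and the granin covariate of 15. Outside the unfiltered fit the smallest adjusted p of a member was 0.0502 (RFX6 with rimonabant, without rimonabant 1).

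Over all genes the counts moved widely. Colchicine had 48 calls, 926 with DESeq2, 1698 with the granin covariate, 1568 without a filter, 150 with DESeq2 size factors, 134 with 4 libraries, 5 with the replicate block and 1 with the GC offset. Rimonabant had 1913, 3489 with the granin covariate, 1090 with the block, 42 with 4 libraries and 0 with the GC offset. Rottlerin had 2, and 678 with DESeq2. Without a filter epirizole had 33, Ly-294002 169, moxifloxacin 742, vardenafil 113 and rottlerin 1076 calls. The joint test had 1 and, without a filter, 3022. The mean of compounds had 0 and, with the granin covariate, 1209. With the current quasi-likelihood method colchicine had 41, rottlerin 1 and rimonabant 1874.

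The count of 19 correlated pairs was 19 with a prior count of 0.5, 15 with the GC offset, 20 with library totals and 14 to 24 when each library was left out. With the granin score, r stayed at 0.885 to 0.98 for the 5 closest genes over 22 settings, including the score without SCG5, while PDX1 passed in 19 of 22 and MNX1 in 2. The median share of spread within treatments, 84.9%, was 82.2% to 89% in the alternatives. Depth limits NKX2-2 and NKX6-1 most, with as few as 4 and 9 reads in a library.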
